A study of Mus musculus with 15 samples.

Results

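The genes that encode the subunits of the proteasome were read in mouse fibroblasts of the immortal line NIH 3T3, made to express 1 of 4 C/EBP transcription factors. Members were the probe sets whose platform annotation gave a single symbol starting with Psma, Psmb, Psmc, Psmd or Psme. They numbered 53 of the 12422 non-control probe sets on the array, and they named 42 of 8251 genes. The choice used the symbol alone and no measured value. A probe set is the group of short oligonucleotides that reads 1 transcript, and its identifier is given in parentheses where a gene has several.

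Every culture carried the plasmid pMTCB6+, in which the zinc-responsive metallothionein promoter drives the insert, and had been selected with G418. The vector group had the plasmid with no insert, and the alpha, beta, delta and epsilon groups had it with a human cDNA: C/EBPa for alpha, C/EBPb for beta, C/EBPd for delta and C/EBPe for epsilon. All groups, vector included, received ZnSO4 for 16 h, so no group shows these cells without zinc. Each group had 3 arrays of type MG_74Av2, 15 in all. The labels speak both of polyclonal transfectants and of triplicate clones, and separate transfections were not established, so p-values here reflect how far these cultures spread. In such bulk RNA, fewer cells of a type and less RNA per cell cannot be told apart.

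The proteasome is the large protease that degrades ubiquitin-tagged proteins. Its 20S core is a barrel of alpha rings, which gate the entrance, and beta rings, in which Psmb6, Psmb7 and Psmb5 carry the cutting sites. A 19S cap, made of an ATPase base and a lid, recognises the tag, removes it, unfolds the substrate and feeds it in. Interferon replaces the catalytic subunits by Psmb9, Psmb10 and Psmb8, which shifts the peptides offered to MHC class I, and alternative caps such as PA28 and PA200 can take the place of 19S. When proteasome activity falls short, the transcription factor encoded by Nfe2l1 raises the genes of most subunits together through antioxidant response elements in their promoters, and Nfe2l2 acts on related elements. C/EBPs are bZIP transcription factors of fat, liver and myeloid cells.

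Because members are known to be raised together through promoter elements, the 250 bases before the start of transcription were searched on both strands. RefSeq promoters of build GRCm38.p6 were at hand for 36 of the 42 member genes. Psmb1, Psmb2, Psmb7, Psmc3, Psmd3 and Psmd7 were not matched. Of the windows below, Psmb5 and Psmb6 are catalytic subunits and hold the core of the antioxidant response element, TGACNNNGC, in capitals. Psmd5, which was called in epsilon cells as given further on, holds none of the 3 motifs searched. All run 5′ to 3′ on the gene's strand and end at the base before the start.
Psmb5, chr14:54617996-54618245, minus strand: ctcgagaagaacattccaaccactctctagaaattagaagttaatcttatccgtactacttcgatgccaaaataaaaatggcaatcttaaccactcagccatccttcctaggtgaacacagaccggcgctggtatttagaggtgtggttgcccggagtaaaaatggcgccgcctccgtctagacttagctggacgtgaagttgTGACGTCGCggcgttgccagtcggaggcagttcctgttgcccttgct
Psmb6, chr11:70525107-70525356, plus strand: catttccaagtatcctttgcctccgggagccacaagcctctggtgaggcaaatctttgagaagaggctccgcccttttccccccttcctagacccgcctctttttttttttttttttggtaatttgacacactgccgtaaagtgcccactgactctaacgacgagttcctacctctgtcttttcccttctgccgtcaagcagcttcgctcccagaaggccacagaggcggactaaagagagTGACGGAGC
Psmd5, chr2:34870963-34871212, minus strand: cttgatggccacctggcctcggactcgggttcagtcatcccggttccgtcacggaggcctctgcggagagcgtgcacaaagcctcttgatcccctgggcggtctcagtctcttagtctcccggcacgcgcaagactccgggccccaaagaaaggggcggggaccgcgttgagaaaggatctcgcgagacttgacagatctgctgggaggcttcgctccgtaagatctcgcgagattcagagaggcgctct

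The Psmb5 match, TGACGTCGC, covers bases 47 to 39 before the start, and the Psmb6 match, TGACGGAGC, bases 9 to 1. Psmb5, Psmb6, Psmc6, Psmd12 and Psmd9 held the antioxidant core, 5 of 36 member genes (13.9%) against 11.5% of 27025 genes with a listed promoter. The CCAAT box, read by the NF-Y complex, lay in 15 member genes (41.7%) against 37.5% of all. The C/EBP core TTGCNNAA lay in Psma6, Psmb3 and Psme3ip1 (8.33%) against 10.8%. Matches of different motifs were counted separately and may overlap, and a match here is a description of the sequence only.

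Signals are in array units after each array was scaled to a common median. They compare groups within a probe set and not 1 probe set with another. Of the 53 members, 44 for 38 genes exceeded 1092.06 units on at least 3 of the 15 arrays and were tested. A member can pass that filter through the group in which it is high, so counts over the 44 do not describe all members. The 9 below the filter were Psmb8, Psmb9, Psmc4, Psmd2 and second probe sets of Psmb1, Psmb4 (98556_at and 98558_r_at), Psmc5 and Psme1. With no filter none of these 9 was called in any C/EBP group against vector (limma; adjusted p from 0.238 for Psme1 161293_r_at in epsilon to 1). A pair of probe sets annotated to several symbols was left out by the rule. Names ending in _f or _s mark sets whose probes can match related transcripts, so those readings may mix copies of a gene. Psmc3ip, a factor of meiotic recombination, and Psme3ip1, a partner of a PA28 subunit, carry matching symbols but are no subunits of the proteasome.

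Against vector, the share of members called lay under that of all probe sets in alpha and epsilon and near it in beta. Most calls were higher, in comparisons that share the 3 vector arrays. In alpha cells 2 of 44 probe sets rose and 0 fell, where 7.17% of all 6963 tested rose and 7.15% fell (adjusted p under 0.05 in limma's moderated test). In beta cells 3 rose and 1 fell, against 5.13% and 4.18% of all. In epsilon cells 3 rose and 1 fell, against 9.38% and 6.91%. In delta cells 0 of 44 was called in either direction (limma), and 0 reached an unadjusted p under 0.05, where 0.359% of all rose, 0% fell and 443 (6.36%) reached that unadjusted p. The counts of members at an unadjusted p under 0.05 in alpha, beta and epsilon were 8, 9 and 10. These were 18.2%, 20.5% and 22.7% of members, where 25.8%, 23% and 29.6% of all probe sets reached that p. The share of members called was 4.55% against 14.3% of all probe sets in alpha, 9.09% against 9.31% in beta and 9.09% against 16.3% in epsilon. In beta that order turned with the scaling, to 20.5% of members against 13.2% of all after quantile normalization, 15.6% against 12.6% with the authors' scaling alone and 13.6% against 11.1% with the median ratio to the mean array.

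Sizes were small beside those of other genes. No tested member differed from vector by more than 2-fold in any group, where 5.56%, 3.56%, 1.03% and 5.89% of all probe sets did in alpha, beta, delta and epsilon. Beyond 1.5-fold were 1, 1, 0 and 2 members, against 16.7%, 13%, 4.44% and 18.8% of all. The whole 95% interval lay inside 1.5-fold for 20, 18, 35 and 24 of the 44 members (45.5%, 40.9%, 79.5% and 54.5%), against 35.4%, 36.9%, 52.9% and 32.9% of all. For the remaining members the interval does not exclude a difference of that size. The median member differed by 0.05, 0.10, -0.01 and 0.08 on the log2 scale, beside 0.00, 0.04, 0.01 and 0.08 over all probe sets. Within a group, members had a median SD of 0.206 on the log2 scale, and all probe sets 0.237.

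Members were also counted by whether all 3 arrays of a group lay outside the range of vector. In alpha cells 7 members lay above all vector arrays and 2 below, 20.5% of members where 28.1% of all probe sets did not overlap. In beta cells 10 lay above and 1 below (25%, against 27.1% of all), and in epsilon cells 8 and 3 (25%, against 29.8%). In delta cells 0 members stood apart from vector, against 11.7% of all. These comparisons share the 3 vector arrays.

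**Figure D1:**
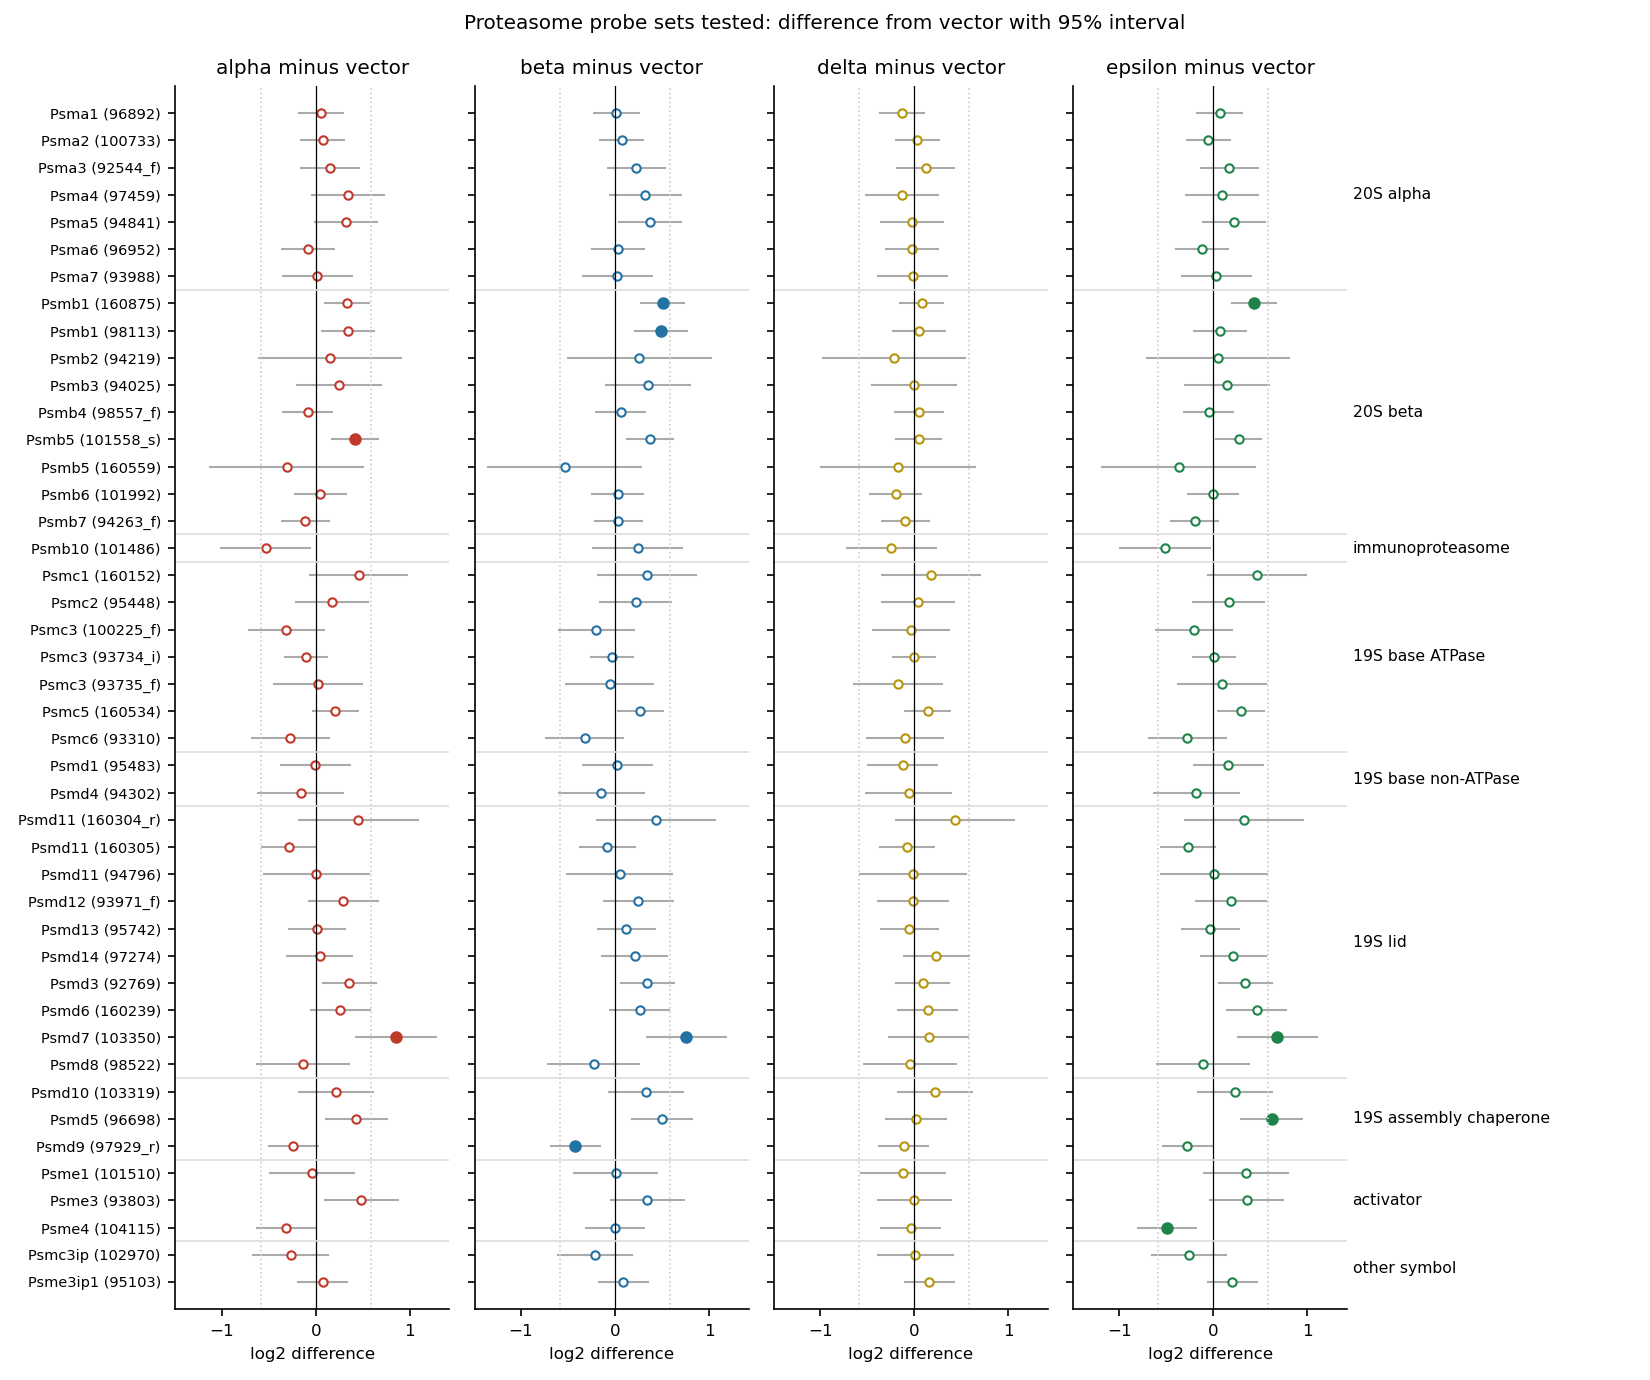
Log2 difference from vector (x axis) of the 44 tested members (rows, grouped by subcomplex, identifiers without their ending), in 1 panel per C/EBP group. Points are fitted differences, grey bars 95% intervals, filled points an adjusted p under 0.05, and dotted lines mark 1.5-fold; filled points are 2 in alpha, 4 in beta, 0 in delta and 4 in epsilon.

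The count of calls moved with single arrays, as did the share of all probe sets called. The 2 calls of alpha became 1 without vector replicate 1, vector replicate 3 or alpha replicate 1. In these fits 11.6%, 10.7% and 12% of all probe sets were called, against 14.3% in the full fit. Without vector replicate 2 the alpha calls became 5, or 11.4% of members against 12.6% of all. The 4 calls of beta became 2 without vector replicate 1, beta replicate 1 or beta replicate 3, 1 without beta replicate 2, and 0 without vector replicate 3. In the same order 6.48%, 6.88%, 5.34%, 6% and 5.97% of all probe sets were called, against 9.31% in the full fit. The 4 calls of epsilon became 2 without vector replicate 1, epsilon replicate 2 or epsilon replicate 3, and 1 without vector replicate 3. There 11.9%, 12.3%, 12.3% and 10.8% of all probe sets were called, against 16.3% in the full fit. Without vector replicate 2 the epsilon calls became 6, or 13.6% of members against 16.6% of all. Other scalings gave more calls in beta, 8 higher and 1 lower after quantile normalization and 6 higher and 1 lower with the authors' scaling alone, where the share of all probe sets called was 13.2% and 12.6%. Without vector replicate 2 the beta count was 6, or 13.6% of members against 8.99% of all.

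The alpha rings held no called member. Psma1 to Psma7 had 7 tested probe sets, and 0 was called in any group. In alpha, beta, delta and epsilon 14.3%, 9.31%, 0.359% and 16.3% of all probe sets were called, so 0 of 7 says little. The differences of the 7 from vector ran from -0.08 to 0.34 on the log2 scale in alpha, 0.02 to 0.37 in beta, -0.13 to 0.12 in delta and -0.12 to 0.22 in epsilon. Psma5 read 10202, 12579 and 11404 units in vector and 13084, 18162 and 13359 in beta. All 3 beta arrays of Psma5 lay above vector, and the difference did not pass (1.29-fold, adjusted p = 0.173). It passed under 2 of the 12 alternatives in beta (adjusted p from 0.0321 to 0.279) and under 1 in alpha (from 0.0258 to 0.338). Psma4 read 11261 ± 3228 in vector (SD, n = 3) and 14092 ± 2959 in alpha, with overlapping arrays (1.27-fold, adjusted p = 0.272). Of the 12 alternatives, array weights alone called Psma4 in alpha (adjusted p from 0.0458 to 0.443) and in beta (from 0.0463 to 0.493).

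Psma3 (92544_f_at) passed in alpha, beta and epsilon after quantile normalization and under none of the other 11 alternatives. Over the 12 its adjusted p ran from 0.00526 to 0.738 in alpha, 0.0108 to 0.507 in beta and 0.0242 to 0.592 in epsilon.

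Other alpha subunits had narrow ranges of group means. Psma2 had group means from 23415 to 25614 units, and its differences in the 4 groups were between -0.05 and 0.08 on the log2 scale. Psma1 had means from 4314 to 4952, Psma6 from 14490 to 16101, Psma7 from 12452 to 12944 and Psma3 (92544_f_at) from 22284 to 26200. For Psma2 the 95% interval of the difference ran from -0.17 to 0.32 in alpha and from -0.30 to 0.19 in epsilon, so differences beyond 1.5-fold lay outside it.

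Among the beta rings, Psmb1, a structural subunit with no cutting site, was called in beta and epsilon cells. Psmb1 (160875_at) read 10751, 10488 and 9208 units in vector, 13648, 11324 and 13428 in alpha, 15061, 14426 and 13760 in beta, 11392, 10883 and 9891 in delta, and 13400, 14114 and 13500 in epsilon. All alpha, beta and epsilon arrays lay above all vector arrays, and the delta arrays overlapped with vector. Psmb1 (160875_at) rose 1.42-fold in beta (log2 0.51, SE 0.11, adjusted p = 0.00905) and 1.35-fold in epsilon (log2 0.43, SE 0.11, adjusted p = 0.0153). In alpha the same probe set read 1.26-fold of vector, which did not pass (adjusted p = 0.0642) but did under 6 of the 12 alternatives (from 0.0232 to 0.237). In delta it read 1.06-fold (adjusted p = 0.993).

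The other tested probe set of Psmb1 gave the same reading in beta but not in epsilon. Psmb1 (98113_at) read 13738, 15305 and 15867 units in vector, 20847, 17712 and 18570 in alpha, 20172, 25793 and 17902 in beta, 15349, 15982 and 15162 in delta, and 14921, 17614 and 14853 in epsilon. It rose 1.41-fold in beta (log2 0.49, SE 0.14, adjusted p = 0.0303), and its epsilon arrays overlapped with vector (1.05-fold, adjusted p = 0.764). In alpha it read 1.27-fold (adjusted p = 0.107) and passed under 3 of the 12 alternatives (from 0.00872 to 0.525). The 95% interval in epsilon ran from -0.21 to 0.36 for this set and from 0.19 to 0.67 for the other. The beta call of 160875_at was lost without vector replicate 3 (adjusted p = 0.0517), without the 5 arrays numbered 1 (0.0768) and with only beta and vector in the fit (0.0545, range over the alternatives 0.00130 to 0.0768). Its epsilon call was lost in the same 3 fits (0.0789, 0.0643 and 0.0797, range over the alternatives 0.00425 to 0.0797). The beta call of 98113_at was lost without vector replicate 1, vector replicate 3, beta replicate 1 or beta replicate 2 (adjusted p = 0.110, 0.0554, 0.0533 and 0.147). It was also lost without the arrays numbered 1 (0.165) and with only beta and vector (0.115, range over the alternatives 0.00606 to 0.165).

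Of the constitutive catalytic subunits, Psmb5 was called in alpha cells, and Psmb6 and Psmb7 in no group. Psmb5 encodes the chymotrypsin-like site, which is the main target of proteasome inhibitor drugs. Psmb5 (101558_s_at) read 8946, 10342 and 9104 units in vector, 13853, 11921 and 12121 in alpha, 11051, 13464 and 12332 in beta, 9763, 9377 and 10133 in delta, and 11242, 12497 and 10466 in epsilon. The alpha, beta and epsilon arrays all lay above the vector arrays. Psmb5 (101558_s_at) rose 1.33-fold in alpha (log2 0.42, SE 0.12, adjusted p = 0.0258), and read 1.30-fold of vector in beta (adjusted p = 0.0607), 1.03-fold in delta (0.996) and 1.20-fold in epsilon (0.143). The beta difference passed under 6 of the 12 alternatives (adjusted p from 0.00409 to 0.168). The alpha call was lost without vector replicate 1, vector replicate 3 or alpha replicate 1 (adjusted p = 0.0938, 0.0863 and 0.105), without the arrays numbered 1 (0.275) and with only alpha and vector (0.0916, range over the alternatives 0.00346 to 0.275).

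The dimmer probe set of Psmb5 went the other way with a wide error. Psmb5 (160559_at) read 1730, 1549 and 2212 units in vector and 1147, 1661 and 1641 in alpha. Its differences were -0.31, -0.53, -0.17 and -0.37 on the log2 scale in alpha, beta, delta and epsilon, each with an SE of 0.39, and none passed. The alpha interval of this set, -1.13 to 0.52, includes the 0.42 of the brighter set.

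Psmb6, the caspase-like site, read 10007, 11493 and 11298 units in vector, 11976, 10319 and 11619 in alpha, 11225, 12028 and 10241 in beta, 11505, 8860 and 8469 in delta, and 10684, 11839 and 10203 in epsilon. All groups overlapped with vector, and the fitted differences ran from -0.20 in delta to 0.05 in alpha. Psmb7 (94263_f_at), the trypsin-like site, read 12328, 14461 and 12079 units in vector, 11654, 10703 and 13717 in alpha, 12978, 13969 and 12840 in beta, 11859, 12244 and 12251 in delta, and 10310, 12583 and 11013 in epsilon. Its groups overlapped too, with differences from -0.20 in epsilon to 0.04 in beta. The 95% interval of Psmb6 in alpha, -0.23 to 0.33, and that of Psmb7 in epsilon, -0.46 to 0.06, lay inside 1.5-fold.

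Of the interferon-inducible counterparts, Psmb8 and Psmb9 were too dim to test. Psmb8 read 325, 145 and 170 units in vector, 119.5, 113 and 163 in alpha, 139, 117 and 505 in beta, 144, 98.7 and 109 in delta, and 104.5, 533 and 181 in epsilon. Of the 15 arrays 12 lay under the floor of 189.652 units, the level to which low signals were raised before the test, so no direction is read for Psmb8. Psmb9 read 197, 757 and 284 units in vector, 217, 126.5 and 110.5 in alpha, 718, 143 and 575 in beta, 246, 364 and 687 in delta, and 147, 159 and 571 in epsilon. Of these, 5 arrays lay under the floor, 2 of them in alpha. Psmb8 and Psmb9 lie beside the peptide transporter genes Tap1 and Tap2 in the MHC region.

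Psmb10 was the inducible catalytic subunit that could be tested. It read 2690, 3197 and 2431 units in vector, 2240, 1320 and 2337 in alpha, 3013, 4235 and 2721 in beta, 2495, 2349 and 2155 in delta, and 2158, 2237 and 1487 in epsilon. All alpha and all epsilon arrays of Psmb10 lay below the vector arrays. Neither difference passed (log2 -0.53, SE 0.23, adjusted p = 0.147 in alpha, and log2 -0.51, adjusted p = 0.143 in epsilon). With array weights, 1 of the 12 alternatives, the epsilon difference passed (log2 -0.63, adjusted p over the 12 from 0.0385 to 0.268). Beta overlapped with vector at 0.24 and delta at -0.24. Beta set against alpha gave 0.78, with all 3 beta arrays above all alpha arrays (adjusted p = 0.0912). Psmb10 is controlled like Psmb8 and Psmb9 by interferon, and the genes named below as antigen processing partners are read beside it.

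**Figure D2:**
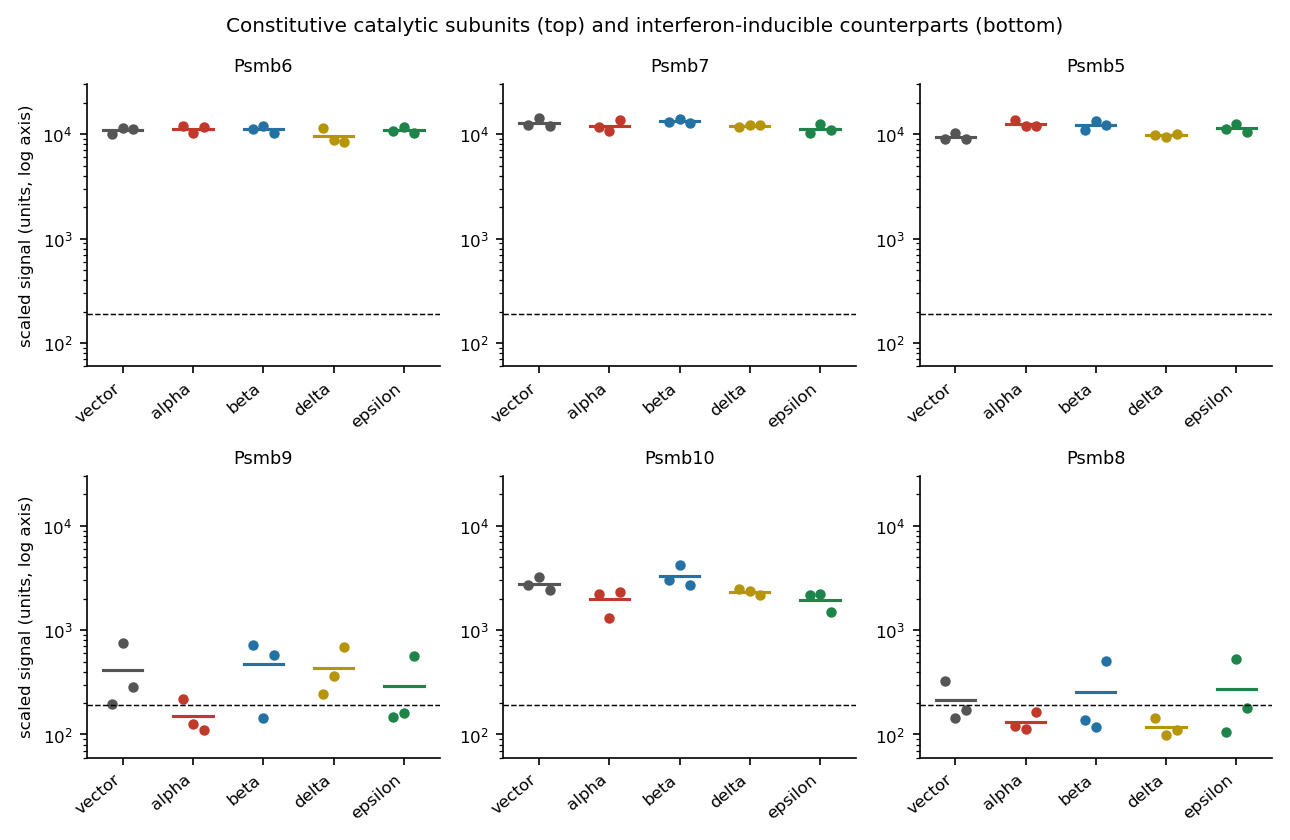
Scaled signal (y axis, log scale) of the constitutive catalytic subunits Psmb6, Psmb7 and Psmb5 (101558_s_at) in the top row and, below each, the subunit that replaces it, by group on the x axis. Points are arrays, 3 per group, bars group means, and the dashed line the floor of 189.652 units; 12 of 15 Psmb8 arrays lie under it.

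The other beta subunits were not called. Psmb2 spread widely, from 5363 to 16689 units over the 15 arrays. The arrays numbered 1 of the 5 groups read 5960, 6693, 6810, 5672 and 5363 for Psmb2, and every other array read at least 8108. Its differences from vector, -0.22 to 0.26 on the log2 scale, have an SE of 0.36 each. Psmb3 read 13277 ± 2822 units in vector and 17135 ± 4734 in beta (1.28-fold, adjusted p = 0.366). Psmb4 (98557_f_at) had group means from 27116 to 30114.

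In the base of the cap, none of the probe sets of the ATPase ring, which unfolds substrates, was called in any group. With 7 sets tested this says little. Over the whole array 14.3%, 9.31%, 0.359% and 16.3% of probe sets were called in alpha, beta, delta and epsilon. The 7 tested sets of Psmc1, Psmc2, Psmc3, Psmc5 and Psmc6 had differences from -0.31 to 0.46 in alpha, and in epsilon from -0.28 to 0.46. Psmc5 (160534_at) read 7756, 8585 and 8105 units in vector, 10067, 8947 and 9278 in alpha, 9234, 9637 and 10666 in beta, 8478, 8913 and 9606 in delta, and 8791, 11300 and 10042 in epsilon. Alpha, beta and epsilon arrays of Psmc5 all lay above vector, by 1.16-fold, 1.21-fold and 1.23-fold, and none of the 3 passed (adjusted p = 0.298, 0.180 and 0.105). Of the 12 alternatives, array weights alone called it in beta (adjusted p from 0.0105 to 0.351) and in epsilon (from 0.0418 to 0.252). Psmc1 read 1.37-fold of vector in alpha and 1.38-fold in epsilon with overlapping arrays (SE 0.25, adjusted p = 0.281 and 0.233). Both passed under 1 of the 12 alternatives, the replicate number as a block (adjusted p = 0.0225 and 0.0180). Those numbers are not known to pair the arrays.

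Psmc6 lay on the lower side in all 4 groups, from -0.10 in delta to -0.32 in beta, without a call in the full fit. Without alpha replicate 3 it was called lower in alpha (log2 -0.54, adjusted p = 0.0436 in limma), and under 0 of the 12 alternatives. Psmc2 lay on the higher side, from 0.04 to 0.22, without a call. The 3 probe sets of Psmc3 did not share a direction in epsilon, where they read -0.21 (100225_f_at), 0.01 (93734_i_at) and 0.10 (93735_f_at). Psmc4 lay under the filter, with group means from 756 to 1044 units. The scaffold Psmd1 and the ubiquitin receptor Psmd4 were tested and not called, at -0.12 to 0.16 and -0.18 to -0.06, and the scaffold Psmd2 lay under the filter.

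The lid held Psmd7, the tested member with the largest fitted difference from vector in alpha, beta and epsilon. Psmd7 encodes the lid subunit that pairs with the deubiquitinase Psmd14 to cut ubiquitin chains off substrates. It read 7082, 8366 and 7423 units in vector, 13426, 11765 and 16487 in alpha, 10775, 15871 and 12510 in beta, 7496, 9810 and 8245 in delta, and 9279, 17337 and 11280 in epsilon. Alpha, beta and epsilon arrays lay above all vector arrays, and delta overlapped with vector. Psmd7 rose 1.81-fold in alpha (log2 0.86, SE 0.20, adjusted p = 0.00866), 1.69-fold in beta (log2 0.76, adjusted p = 0.0274) and 1.60-fold in epsilon (log2 0.68, adjusted p = 0.0312). In delta Psmd7 read 1.11-fold of vector (95% interval -0.28 to 0.59 on the log2 scale, adjusted p = 0.993).

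The alpha call of Psmd7 was lost without alpha replicate 3 (adjusted p = 0.0510). The beta call was lost without vector replicate 1, vector replicate 3, beta replicate 2 or beta replicate 3 (adjusted p = 0.0876, 0.0868, 0.123 and 0.0723), and if no filter was set (0.0884, range over the alternatives 0.00137 to 0.0884). The epsilon call was lost without vector replicate 1, vector replicate 3 or epsilon replicate 3 (0.0959, 0.0893 and 0.0540) and without epsilon replicate 2. That array carried the highest epsilon value, and without it the difference was 0.43 (adjusted p = 0.155). No filter, no trend and only epsilon and vector also ended the epsilon call (0.0963, 0.0520 and 0.0764, range over the alternatives 0.00580 to 0.0963).

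**Figure D3:**
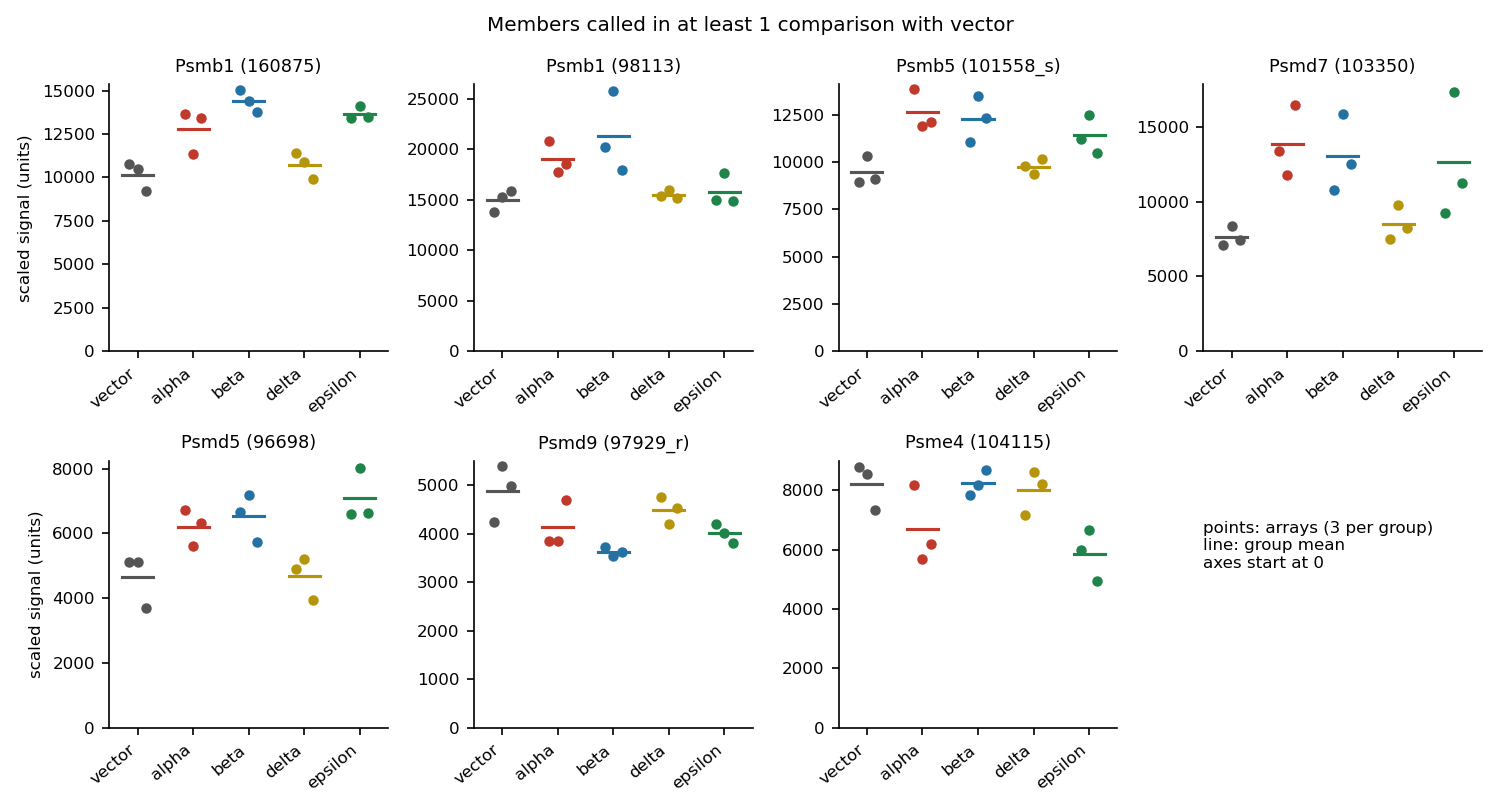
Scaled signal (y axis, from 0) of the 7 probe sets called in at least 1 C/EBP group against vector, by group on the x axis. Points are the 3 arrays of a group and bars their mean; all alpha, beta and epsilon arrays of Psmd7 lie above its vector arrays, and its delta arrays overlap with them.

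The partner Psmd14 was not called in any group. It read 5261, 7192 and 7303 units in vector and 6626, 5856 and 7750 in alpha, with overlapping arrays (log2 0.04, 95% interval -0.32 to 0.40, adjusted p = 0.922). The difference between these members in their response was not tested. Psmd3, a lid scaffold, read 9742, 11561 and 8264 units in vector and 11562, 13369 and 12367 in beta, 11799, 13231 and 12087 in epsilon. Its beta and epsilon arrays lay above vector by 1.27-fold each, and neither passed (adjusted p = 0.135 and 0.105). Each passed under 3 of the 12 alternatives (from 0.00804 to 0.270 in beta and 0.0196 to 0.234 in epsilon), and the alpha difference of 1.28-fold under 4 (from 0.0112 to 0.338). Psmd6 read 7745, 9194 and 6873 units in vector and 10277, 11082 and 11157 in epsilon, all higher (1.37-fold), and it did not pass (adjusted p = 0.0511), though it did under 4 of the 12 alternatives (from 0.00680 to 0.0927).

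Other lid subunits stayed uncalled. Psmd11 had 3 tested probe sets, which read -0.29 (160305_at), 0.01 (94796_at) and 0.45 (160304_r_at) on the log2 scale in alpha, none of them called. In epsilon, 160305_at passed on the lower side under 2 of the 12 alternatives (adjusted p from 0.0167 to 0.388). Psmd12 (93971_f_at) read 1.23-fold of vector in alpha (adjusted p = 0.343), Psmd13 had group means from 4740 to 5350 units, and Psmd8 lay between -0.23 and -0.05 in the 4 groups. In the lid as a whole, 1 of 10 tested probe sets rose in each of alpha, beta and epsilon, in each case Psmd7, and 0 in delta. Of all probe sets 7.17% rose in alpha, 5.13% in beta, 9.38% in epsilon and 0.359% in delta.

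The chaperones that assemble the base went in both directions. Psmd5, which holds a pair of ATPases until the ring is complete, read 5115, 5118 and 3696 units in vector, 6724, 5593 and 6303 in alpha, 6666, 7173 and 5721 in beta, 4904, 5208 and 3946 in delta, and 6604, 8017 and 6626 in epsilon. Alpha, beta and epsilon arrays of Psmd5 all lay above vector. It rose 1.54-fold in epsilon (log2 0.62, SE 0.16, adjusted p = 0.0128), and read 1.35-fold in alpha (adjusted p = 0.0841), 1.41-fold in beta (0.0585) and 1.01-fold in delta (0.996). The alpha difference passed under 4 of the 12 alternatives (adjusted p from 0.0240 to 0.237) and the beta difference under 5 (from 0.0140 to 0.167). The epsilon call was lost without vector replicate 3, the lowest vector array (adjusted p = 0.0765), without epsilon replicate 2 (0.0577) and with only epsilon and vector (0.0512, range over the alternatives 0.00218 to 0.0512).

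Psmd9 (97929_r_at), another chaperone of the base, was on the lower side. It read 4239, 5405 and 4986 units in vector, 3855, 3843 and 4697 in alpha, 3732, 3536 and 3615 in beta, 4752, 4197 and 4537 in delta, and 4203, 4015 and 3813 in epsilon. Beta and epsilon arrays lay below all vector arrays. Psmd9 fell 1.34-fold in beta (log2 -0.42, SE 0.13, adjusted p = 0.0479), and read -0.28 in epsilon (adjusted p = 0.158). This call kept its side of the threshold in only 2 of 15 single-array omissions, those of vector replicate 1 or alpha replicate 3. The adjusted p over these 15 fits ran from 0.0342 to 0.142, and over the alternatives from 0.0117 to 0.128. Psmd10, an oncoprotein known as gankyrin, read 1419 ± 93.2 units in vector and was not called, at 1.16-fold to 1.26-fold of vector.

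Of the alternative caps, PA200 was lower in epsilon cells and the PA28 genes were not called. Psme4 encodes PA200, which opens the core without ATP. It read 8799, 8538 and 7352 units in vector, 8197, 5694 and 6178 in alpha, 7848, 8166 and 8698 in beta, 7183, 8622 and 8233 in delta, and 5995, 6660 and 4933 in epsilon. All epsilon arrays lay below all vector arrays, and 2 of 3 alpha arrays did. Psme4 fell 1.41-fold in epsilon (log2 -0.50, SE 0.15, adjusted p = 0.0331), and read -0.31 in alpha (adjusted p = 0.205), 0.00 in beta (95% interval -0.32 to 0.32) and -0.04 in delta.

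The epsilon call of Psme4 was lost without vector replicate 1, vector replicate 2, epsilon replicate 1 or epsilon replicate 3 (adjusted p = 0.111, 0.0751, 0.0536 and 0.154). It was also lost with no filter (0.0609), no trend (0.0503), only epsilon and vector (0.0842) and without the arrays numbered 1 (0.120, range over the alternatives 0.00612 to 0.120). Psme1 (101510_at), the alpha subunit of PA28, read 2771, 6280 and 5022 units in vector, 4287, 3828 and 4928 in alpha, 4347, 4702 and 4345 in beta, 3887, 4150 and 4223 in delta, and 4981, 5755 and 6277 in epsilon. The vector arrays of Psme1 spanned the arrays of all other groups, and no difference passed. Psme3, the nuclear PA28 subunit, read 4666, 7209 and 4631 units in vector, 8221, 6630 and 7829 in alpha, 7043, 7566 and 5979 in beta, 6770, 4259 and 5413 in delta, and 7259, 7316 and 6114 in epsilon. Its alpha reading of 1.40-fold did not pass (adjusted p = 0.106), and vector replicate 2 overlapped with the alpha arrays. That reading passed under 1 of the 12 alternatives, array weights (adjusted p over the 12 from 0.0219 to 0.465). Psme2 had no probe set of its own under the rule.

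**Figure D4:**
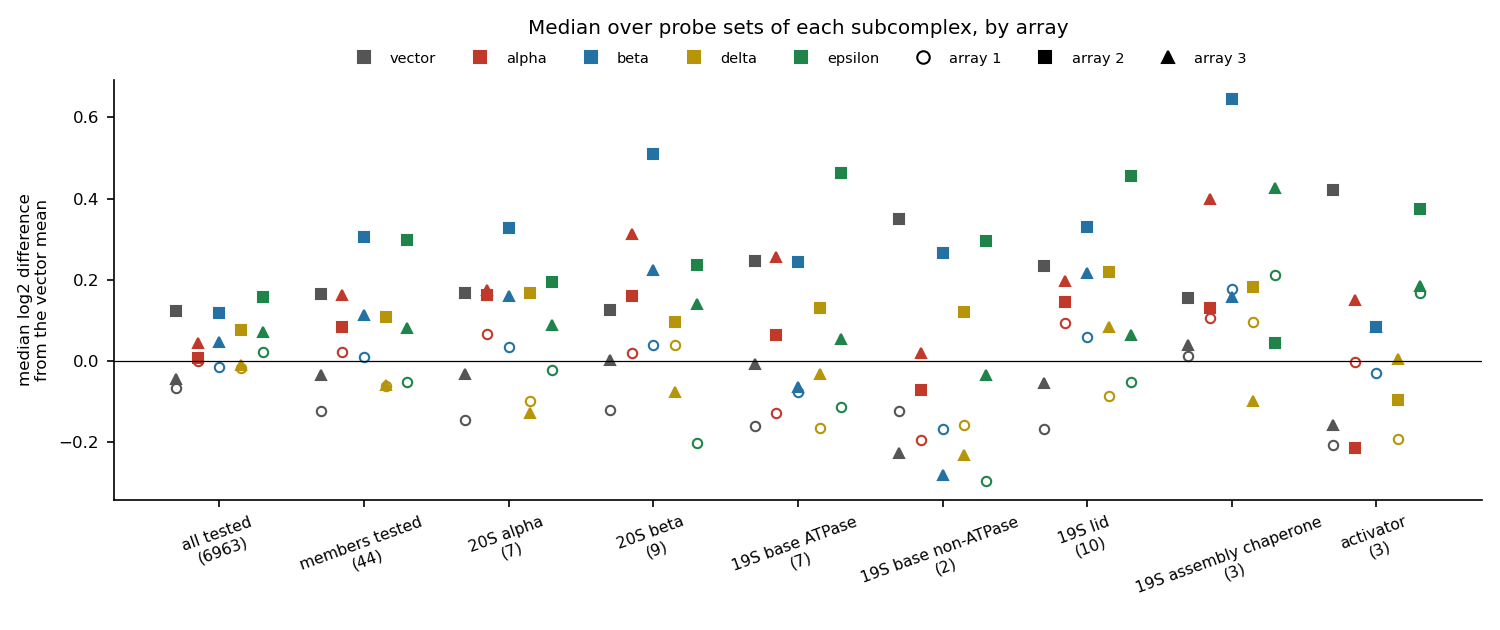
For each array, the median over probe sets of the log2 difference from the vector mean (y axis), by subcomplex (x axis, number of probe sets in parentheses), with colours for groups and markers for array numbers. The spread between arrays of a group is as wide as the distance between groups: over the 44 members, vector arrays lie at -0.12, 0.16 and -0.03 and epsilon arrays at -0.05, 0.30 and 0.08.

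Read as a median per array over the 44 members, the groups overlapped with vector. The mean of these array medians was 0.00 ± 0.15 on the log2 scale in vector (SD, n = 3), 0.09 ± 0.07 in alpha, 0.14 ± 0.15 in beta, -0.00 ± 0.10 in delta and 0.11 ± 0.18 in epsilon. The 20S beta rings gave 0.16 ± 0.15 in alpha, 0.26 ± 0.24 in beta, 0.02 ± 0.09 in delta and 0.06 ± 0.23 in epsilon. The lid gave 0.15 ± 0.05, 0.20 ± 0.13, 0.07 ± 0.15 and 0.16 ± 0.27 in the same order. Arrays numbered 2 read high in vector, beta, delta and epsilon, at 0.16, 0.30, 0.11 and 0.30, where all probe sets on them read 0.12, 0.12, 0.08 and 0.16. The median difference over members moved with single arrays of vector and of the C/EBP groups. In alpha (0.05) it was -0.03 without vector replicate 1, 0.14 without vector replicate 2 and 0.01 without alpha replicate 3. It was 0.09 without alpha replicate 1 and 0.08 without alpha replicate 2. In beta (0.10) it was 0.05 without vector replicate 1, 0.25 without vector replicate 2, 0.21 without beta replicate 1, 0.03 without beta replicate 2 and 0.16 without beta replicate 3. In delta (-0.01) it was -0.08, 0.10 and -0.03 without vector replicate 1, 2 or 3, and 0.04, -0.09 and 0.02 without delta replicate 1, 2 or 3. In epsilon (0.08) it was 0.00, 0.19 and 0.05 without vector replicate 1, 2 or 3, 0.19 without epsilon replicate 1 and -0.02 without epsilon replicate 2.

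A difference among all 5 groups was called for 5 of the 44 members (limma's moderated F-test), where 16.5% of all probe sets were called. These were Psmb1 (160875_at, adjusted p = 0.0121), Psmd7 (0.0151), Psmd5 (0.0202), Psmb5 (101558_s_at, 0.0478) and Psmb1 (98113_at, 0.0487). The count of 5 was 3 in 10 of 15 single-array omissions, namely without vector replicate 1 or 3, alpha replicate 2 or 3, beta replicate 2, any of the delta arrays, or epsilon replicate 1 or 3. Among the 4 C/EBP groups alone, 0 members passed, where 10.2% of all probe sets did, and 7 (15.9%) had an unadjusted p under 0.05 against 23.7% of all. The 0 members that passed this 4-group test became 1 without vector replicate 3, alpha replicate 1, epsilon replicate 1 or epsilon replicate 2. For these omissions the share of all probe sets passing either F-test was not taken.

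Set against each other pair by pair, the C/EBP groups gave calls for 3 members, each time with delta as the lower group. None of the 3 passed the 4-group F-test (limma, adjusted p = 0.104 for Psmd7, 0.0748 for Psmb1 160875_at and 0.0720 for Psmd5). No difference between C/EBPs is therefore claimed for them. Each of the 3 pairs had 1 member called, or 2.27% of the 44. Psmd7 was lower in delta than in alpha (log2 -0.70, SE 0.20, adjusted p = 0.0437), where 8.4% of all probe sets were called in that pair. Psmb1 (160875_at) was lower in delta than in beta (log2 -0.43, SE 0.11, adjusted p = 0.0390), where 4.77% were called. Psmd5 was higher in epsilon than in delta (log2 0.60, SE 0.16, adjusted p = 0.0252), where 8.21% were called. No member was called between beta and alpha, epsilon and alpha or epsilon and beta (limma), where 2.86%, 1.31% and 2.34% of all probe sets were. At an unadjusted p under 0.05 these pairs had 1, 0 and 3 members, against 12%, 10.1% and 14.1% of all probe sets.

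The 3 pairwise calls were not firm. That of Psmd7 was lost in 10 of 15 single-array omissions, namely without vector replicate 1 or 3, any alpha array, beta replicate 3, any delta array or epsilon replicate 3 (adjusted p over all 15 from 0.0133 to 0.191). That of Psmb1 was lost in 7, without any beta or delta array or without epsilon replicate 3 (from 0.0337 to 0.176). That of Psmd5 was lost in 4, without delta replicate 1 or 3 or epsilon replicate 2 or 3 (from 0.0162 to 0.140). Without the arrays numbered 1 none of the 3 passed (0.129, 0.202 and 0.0821). Over the alternatives their adjusted p ran from 0.00319 to 0.133, from 0.00163 to 0.202 and from 0.00447 to 0.0821.

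The genes around the proteasome were read from lists of its pathway, each gene by its brightest tested probe set. Tested were 11 assembly and associated factors, which build the core or ride on the cap. In alpha, beta and delta 0 was called, where 14.3%, 9.31% and 0.359% of all probe sets were. In epsilon 1 rose, where 9.38% of all did. That gene was Psmg1, an assembly chaperone of the alpha ring, which read 2017 ± 380 units in vector and 3249 ± 654 in epsilon (1.61-fold, log2 0.69, SE 0.21, adjusted p = 0.0305). The call was lost without vector replicate 1 or 3, epsilon replicate 2 or 3 (0.138, 0.0504, 0.127 and 0.0856), with no filter (0.0769) and with only epsilon and vector (0.0723, range over the alternatives 8.90e-04 to 0.0769). Pomp, which matures the beta ring, read between -0.28 and 0.01, and Usp14, a deubiquitinase on the cap, between -0.19 and 0.22, neither called. A dimmer probe set of Psmg3 (94543_at) rose in epsilon (log2 0.85, adjusted p = 0.0392), where the brighter one (162356_r_at) read 0.41 (adjusted p = 0.203). That call was lost without vector replicate 1 or 2 or any epsilon array (0.106, 0.107, 0.0983, 0.0702 and 0.0854), and over the alternatives its adjusted p ran from 0.00883 to 0.240. The median of the 11 was 0.03, 0.05, 0.06 and 0.02 in alpha, beta, delta and epsilon.

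The regulators of proteasome genes included calls in both directions. Of 9 tested, 1 rose and 1 fell in alpha, 1 fell in beta, 0 was called in delta, and 3 rose and 2 fell in epsilon. The rises in epsilon include Nfe2l1 by its brighter probe set alone, which the other contradicts, as given below. Of all probe sets 7.17%, 5.13%, 0.359% and 9.38% rose in alpha, beta, delta and epsilon, and 7.15%, 4.18%, 0% and 6.91% fell. The median of the 9 was -0.11, -0.14, 0.03 and -0.03 in alpha, beta, delta and epsilon. Nfe2l2, which encodes the stress factor NRF2, read 4807 ± 719 units in vector and rose to 7568 ± 742 in alpha (log2 0.66, SE 0.15, adjusted p = 0.00532) and 7728 ± 976 in epsilon (log2 0.69, adjusted p = 0.00408). It read 5745 ± 324 in beta (adjusted p = 0.302) and 6665 ± 1069 in delta (0.395). Without the arrays numbered 1 neither Nfe2l2 call held (0.121 in alpha, range over the alternatives 3.39e-04 to 0.121; 0.0522 in epsilon, range 2.60e-04 to 0.0522). Mafk, a small partner with which these factors bind DNA, fell in alpha, beta and epsilon (log2 -1.39, -1.18 and -1.27, SE 0.30 each, adjusted p = 0.00388, 0.0192 and 0.00737). Mafk read -0.22 in delta (adjusted p = 0.993). Its beta call was lost without vector replicate 2 or 3 or beta replicate 1 (0.0792, 0.0626 and 0.0826) and with no filter (0.0821, range over the alternatives 1.61e-04 to 0.0821).

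Nfe2l1 itself gave opposite readings from its probe sets. In epsilon, Nfe2l1 (160535_at) rose from 6179 ± 469 to 8264 ± 863 units (log2 0.42, SE 0.13, adjusted p = 0.0397) and Nfe2l1 (101757_at) fell from 3617 ± 355 to 2508 ± 187 (log2 -0.53, SE 0.13, adjusted p = 0.0110). No direction is given for the gene, and without it 2 regulators rose in epsilon. The first call was lost in 6 of 15 single-array omissions, without vector replicate 1 or 3, delta replicate 1 or 3, or epsilon replicate 2 or 3 (adjusted p from 0.0505 to 0.138). It was also lost with no trend (0.0556), with only epsilon and vector (0.111) and without the arrays numbered 1 (0.0823, range over the alternatives 0.00666 to 0.111). The second was lost without vector replicate 1 (0.0592), with only epsilon and vector (0.0669) and without the arrays numbered 1 (0.131, range 0.00433 to 0.131).

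Of the NF-Y genes only Nfyc was called, and its probe sets were called in different groups. Nfyc (94968_at), a subunit of the NF-Y complex, rose (log2 0.49, adjusted p = 0.0161), a call lost without vector replicate 3 or epsilon replicate 1 (0.0836 and 0.0588), with only epsilon and vector (0.0764) and without the arrays numbered 1 (0.147, range over the alternatives 0.00784 to 0.147). Its other probe set (94969_at) read 0.26 in epsilon (adjusted p = 0.400) and rose in alpha (log2 0.65, adjusted p = 0.0315), where the first read 0.27 (0.197). That alpha call was lost without vector replicate 1 or 3 or alpha replicate 1 or 3 (0.113, 0.0781, 0.0751 and 0.114), and over the alternatives its adjusted p ran from 0.0187 to 0.187. Maff, another small Maf, fell in epsilon (log2 -0.87, adjusted p = 0.0441), and 10 of the 15 single-array omissions ended that call (all but alpha replicate 2 or 3, delta replicate 1 or 3 or epsilon replicate 3). Its adjusted p ran from 0.0452 to 0.133 in these 15 fits and from 0.00885 to 0.234 over the alternatives.

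Of 9 tested genes that carry or bind ubiquitin, 2 fell in alpha, 3 fell and 1 rose in beta, 0 was called in delta, and 3 fell in epsilon, where 7.15%, 4.18%, 0% and 6.91% of all probe sets fell. In beta 5.13% of all rose. The median of the 9 was 0.08, -0.12, 0.01 and 0.13 in alpha, beta, delta and epsilon, beside 0.00, 0.04, 0.01 and 0.08 over all probe sets. Zfand2a, a stress-induced partner of the proteasome cap, fell from 14027 ± 3367 units to 1896 ± 286 in alpha, 3473 ± 301 in beta and 1788 ± 445 in epsilon (log2 -2.87, -1.99 and -2.97, SE 0.19 each, adjusted p = 2.06e-08, 6.57e-06 and 1.43e-08), and read 11458 ± 1362 in delta (log2 -0.27, adjusted p = 0.938). The dimmer probe set of Zfand2a (161376_f_at) fell in alpha and epsilon (log2 -2.60 and -2.16) and missed the threshold in beta (log2 -1.38, adjusted p = 0.0704). For this set 2 alpha arrays, at 178 and 159 units, lay under the floor, so its alpha difference depends on where the floor was set. An epsilon array, at 218 units, lay close to it. Sqstm1, the receptor p62 that carries tagged proteins to autophagy, fell from 34811 ± 731 to 18456 ± 2841 in alpha, 21235 ± 5065 in beta and 17650 ± 2734 in epsilon (log2 -0.93, -0.74 and -0.99, SE 0.17 each, adjusted p = 0.00117, 0.0108 and 7.65e-04). Its beta call was lost without beta replicate 1 (0.0550) and without the arrays numbered 1 (0.0583, range over the alternatives 3.40e-04 to 0.0583).

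Ubiquilins, which shuttle tagged proteins to the cap, went both ways. Ubqln1 (95601_at) fell in epsilon from 11375 ± 830 to 6990 ± 797 units (log2 -0.71, adjusted p = 0.00317), and its other probe set (99575_at) read -0.45 (adjusted p = 0.0783). In beta Ubqln1 (95601_at) fell to 8239 ± 1542 (log2 -0.48, adjusted p = 0.0497), and 12 of the 15 single-array omissions ended that call (all but beta replicate 2 or epsilon replicate 1 or 2). Its adjusted p ran from 0.0201 to 0.194 in these fits and from 0.00331 to 0.220 over the alternatives. Ubqln2 rose in beta (log2 0.47, adjusted p = 0.0269), a call lost without vector replicate 1 or any beta array (0.109, 0.0660, 0.0666 and 0.0888). It was lost too with only beta and vector (0.0677) and without the arrays numbered 1 (0.192, range over the alternatives 0.00291 to 0.192). Vcp, the segregase that extracts tagged proteins, was not called (100710_at, -0.12 to 0.34).

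**Figure D5:**
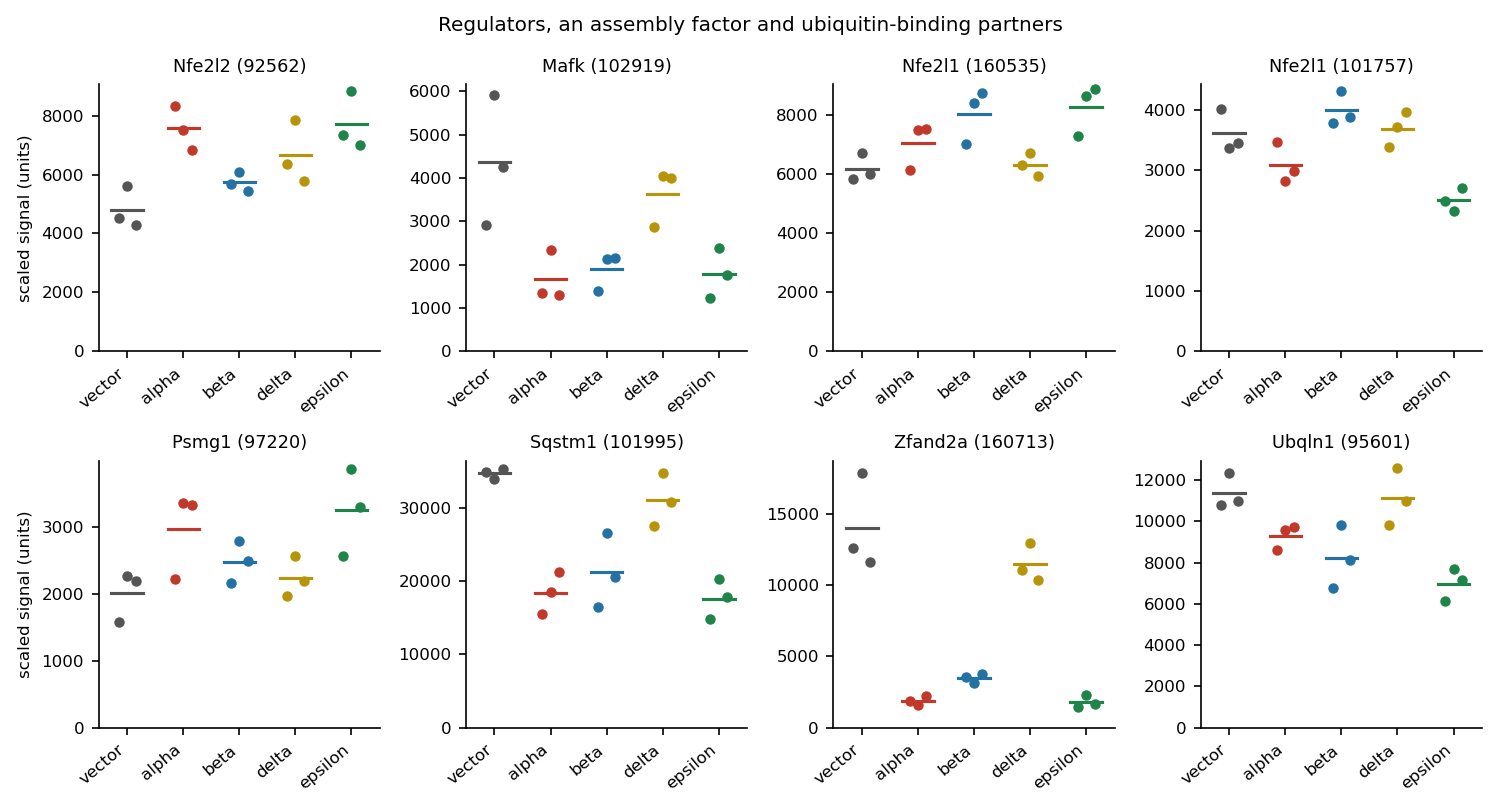
Scaled signal (y axis, from 0) of regulators (Nfe2l2, Mafk, and the 2 probe sets of Nfe2l1), the assembly factor Psmg1 and the ubiquitin-binding partners Sqstm1, Zfand2a and Ubqln1, by group on the x axis. Points are the 3 arrays of a group and bars their mean; Sqstm1 and Zfand2a are lower in alpha, beta and epsilon than in vector, and the Nfe2l1 probe sets move apart in epsilon.

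The antigen processing partners of the inducible subunits had 6 tested genes. In alpha 2 fell, in beta 1 rose, in delta 0 was called and in epsilon 2 fell. Of all probe sets 7.15% fell in alpha, 5.13% rose in beta, 0.359% were called in delta and 6.91% fell in epsilon. The median of the 6 was -0.48, 0.17, -0.10 and -0.33 in the same order. B2m, the light chain of MHC class I, fell from 44213 ± 6513 units to 25294 ± 2179 in alpha (log2 -0.80, SE 0.15, adjusted p = 0.00107) and 27552 ± 4173 in epsilon (log2 -0.68, adjusted p = 0.00392). Tapbp (100154_at), which loads peptides on class I, fell in alpha (log2 -0.71, adjusted p = 0.00111), and its other probe sets read -0.30 (102689_at) and -0.66 (162104_f_at), neither called. Isg15, an interferon-induced ubiquitin-like gene, fell in epsilon from 1129 ± 164 to 235 ± 43.1 (log2 -2.27, SE 0.45, adjusted p = 0.00251). Irf1, the interferon factor that drives Psmb8, Psmb9 and Psmb10, rose in beta from 4468 ± 415 to 7001 ± 826 (log2 0.65, SE 0.13, adjusted p = 0.00428), a call lost without the arrays numbered 1 (0.0557, range over the alternatives 9.18e-04 to 0.0557). Tap1 (103035_at) and Tap2, the transporter beside Psmb8 and Psmb9, were not called, at -0.29 to 0.12 and 0.02 to 0.25.

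Immune cells express the inducible subunits at rest, so their markers were read too. Of 10 leukocyte markers 9 were on the array and 5 were tested. None of the 5 was called in any group, where 14.3%, 9.31%, 0.359% and 16.3% of all probe sets were in alpha, beta, delta and epsilon. The summed signal of the leukocyte markers ran from 10883 to 13363 units in vector, 10672 to 12825 in alpha, 9708 to 12075 in beta, 10404 to 11441 in delta and 10334 to 13794 in epsilon, so the groups overlapped. The brightest set in that sum was Csf1r (161832_r_at), at 5269 ± 336 units in vector, where its other set (104354_at) read 532 ± 208. The sum therefore says little of the dimmer markers. The pan-leukocyte gene Ptprc lay under the floor on 14, 9 and 11 of 15 arrays in its 3 probe sets. Of 9 fibroblast markers 8 were tested. In alpha 1 fell (Thy1), in beta 3 rose (Col1a1, Col3a1 and Pdgfrb) and in epsilon 1 rose (Col3a1). Of all probe sets 7.15% fell in alpha, 5.13% rose in beta and 9.38% rose in epsilon. The sum of the fibroblast markers ran from 117397 to 156610 in vector, 100582 to 125516 in alpha, 151102 to 200201 in beta, 118452 to 123473 in delta and 121889 to 157953 in epsilon. Vim lay under the signal filter. The part of these markers in the results on Psmb10 and the antigen processing genes was not tested.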

How the data were processed

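Total RNA of 15 cultures was hybridised to MG_74Av2 arrays, and the authors deposited Microarray Suite signals, an intensity on a linear scale for each probe set, per the labels. The authors had scaled the arrays alike, since their trimmed means lay between 2501.12 and 2501.39. Array medians ran from 992.25 to 1149.7. Precision is set by the 3 arrays per group.

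After 66 of 12488 probe sets were left out as controls, each array was brought to a common median, the mean of the 15 array medians. The floor was the 20th percentile over all arrays (189.652 units), and log2 was taken after it was set. Probe sets above the pooled median (1092.06) on at least 3 arrays were tested, 6963 in all. All 5 groups entered a single linear model (lmFit, then eBayes with a trend; limma 3.58.1, R 4.3.3). Tests were two-sided, with Benjamini-Hochberg adjustment over all probe sets tested within a contrast and a threshold of 0.05. Each log2 difference carries the model's standard error. The fit was tested on simulated data first.

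Members, lists, tests and alternatives were chosen with earlier results of these data known. The named genes are the catalytic and inducible subunits, the alternative caps and every called member, with the others by range, and for the lists every called gene. Alternatives changed the scaling, the floor, the filter or the trend, weighted the arrays, blocked on the replicate number, restricted the model to the contrast's own groups, omitted arrays, or used the labels' univariate F-test. Ranges given over the alternatives do not count single-array omissions. Gene names come from the platform annotation, and promoters from RefSeq (GRCm38.p6).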

Additional observations from a re-analysis of the deposited data

How the results depend on the processing

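The 0 calls of delta held in all 12 alternatives and in the 15 fits that left out 1 array; the other counts of called members moved. Quantile normalization gave 8, 9 and 7 calls in alpha, beta and epsilon, 11 in the 5-group and 6 in the 4-group F-test. The authors' scaling alone gave 6 in alpha, 7 in beta, 8 and 5 in the F-tests, and the median ratio to the mean array 4 in alpha and 1 in the 4-group F-test. Array weights gave 7, 10 and 8, and 13 and 8 in the F-tests. No filter gave 2 in epsilon and 2 and 1 in the F-tests, and no trend 2 in epsilon and 3 in the 5-group F-test. In epsilon these were 3.77% of members against 8.3% of all with no filter, and 4.55% against 15.7% with no trend. With only the groups of a contrast in the fit the counts were 1, 1 and 0, and without the arrays numbered 1 they were 1, 1 and 2, with 1 in the 5-group F-test; both fits use fewer arrays. The labels' univariate F-test, with the same adjustment, called 2 members and 986 of all 6963 probe sets. For the other F-test counts of this paragraph the share of all probe sets was not taken. Those counts therefore do not set members apart from other genes. The share of all probe sets called moved too. With quantile normalization 18.2% of members and 18.3% of all were called in alpha, 20.5% and 13.2% in beta, and 15.9% and 19.2% in epsilon. With the authors' scaling alone they were 13.3% and 17.9% in alpha, and with the median ratio to the mean array 9.09% and 16.3%. Array weights called 15.9%, 22.7% and 18.2% of members in alpha, beta and epsilon, against 16.6%, 22.6% and 24.8% of all. With only the groups of a contrast 11.5%, 6.26% and 9.91% of all were called, and 9.39%, 4.87% and 9.95% without the arrays numbered 1. Leaving out 1 array gave 1 to 5 calls in alpha, 0 to 6 in beta, 1 to 6 in epsilon, 3 to 5 in the 5-group and 0 to 1 in the 4-group F-test, and medians of -0.028 to 0.14 in alpha and -0.092 to 0.095 in delta. No difference of a called member from vector, or between 2 C/EBP groups, changed sign in any of these fits. The cause of these shifts was not tested. The replicate numbers are not known to pair the arrays. Deviations of arrays with the same number correlated at 0.22 to 0.44 for number 1, 0.02 to 0.43 for number 2 and -0.07 to 0.12 for number 3. With the replicate number as a block, 6, 7, 0 and 6 members were called in alpha, beta, delta and epsilon, and 8 and 5 in the F-tests. The shares in these groups were 13.6%, 15.9%, 0% and 13.6% of members, against 20.7%, 15.8%, 0.632% and 24.1% of all probe sets. The block alone called Psmc1 in alpha and epsilon (adjusted p = 0.0225 and 0.0180, ranges over the alternatives 0.0225 to 0.463 and 0.0180 to 0.406).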

Other observations

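Arrays numbered 1 stood apart for some members in all 5 groups at once. For Psma7, Psmb2, Psmd11 (94796_at) and Psmd8, 4 of the 44 tested members (9.09%), the 5 arrays numbered 1 all read below the other 10, as they did for 118 of 6963 probe sets (1.69%). Psmd11 (94796_at) read 10587 to 11904 units on these arrays and 14033 to 20470 on the others, and Psmd8 7219 to 9324 and 9734 to 13736. No member read highest on all 5 of them, against 27 of all probe sets. The labels name no batch behind the numbers.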
